A study of Saccharomyces cerevisiae with 27 samples.

Results

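Mother cells of budding yeast at 12 generations were compared with mother cells at 8 generations, a generation being 1 round of budding by the mother. The comparison took the 7 arrays whose titles give 12 generations and the 6 whose titles give 8 generations, which are 13 of the 27 arrays of the series. All samples were wild type Saccharomyces cerevisiae of the W303 laboratory background, sorted with magnetic beads and held in logarithmic growth. Every array carried RNA of aged cells in one colour and RNA of a matched young control in the other, so that each value is a ratio of aged to young cells. Aged cells carried the second dye, green in place of red, on 3 of the 7 arrays at 12 generations and on 4 of the 6 at 8 generations, and each ratio was turned by the channel labels to read log2(aged/young). The quantity studied here is the mean of that log2 ratio at 12 generations minus its mean at 8 generations, called the difference below. It addresses at which point of midlife the expression change that comes with age sets in. The remaining arrays, 7 at 1 generation with young cells in both channels and 7 at 18-20 generations, took part in the fit and serve as the ends of the age range. Nothing in the labels states that arrays of one age are separate cultures, so the p-values cover the spread between these arrays, which may be technical.

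A yeast mother divides a limited number of times, and the daughters it buds off start their count anew. In glucose medium, growing yeast represses the genes for using other carbon sources, such as acetate, lactate and fatty acids, and keeps ribosome production high under the TOR and protein kinase A pathways. When glucose signalling drops, the SNF1 kinase and the activators ADR1 and CAT8 turn on the alternative carbon genes, MSN2 and MSN4 turn on stress genes, and ribosome production is shut down.

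The arrays at the 2 ages were of unequal quality, and 1 array has a direction that is not settled. Across genes, 8-generation array 1 correlated at r = -0.64, -0.58 and -0.66 with arrays 2, 3 and 4 of its own age, although its dye orientation is that of array 3 by the labels. Results are therefore given as labelled, and counts of lists also without 8-generation array 1 and with that array's sign turned. Over pairs of arrays, r ran from 0.226 to 0.921 within 12 generations (median 0.555) and from -0.661 to 0.823 within 8 generations (median 0.0194). The spread of log2 ratios over genes (SD) was 0.598 to 0.985 on the arrays at 12 generations and 0.323 to 0.897 on those at 8 generations. All 8-generation arrays had smaller spots (median diameter 80 to 90) than the 12-generation arrays (110), and they share that with 1 other array, 18-20-generation array 7. Array set and age therefore cannot be told apart except through that array. Spot brightness at 8 generations fell into 2 patterns, arrays 1 to 4 (Spearman's rho of 0.916 to 0.954 between arrays) and arrays 5 and 6 (0.948), with 0.690 to 0.787 across them.

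**Figure D1:**
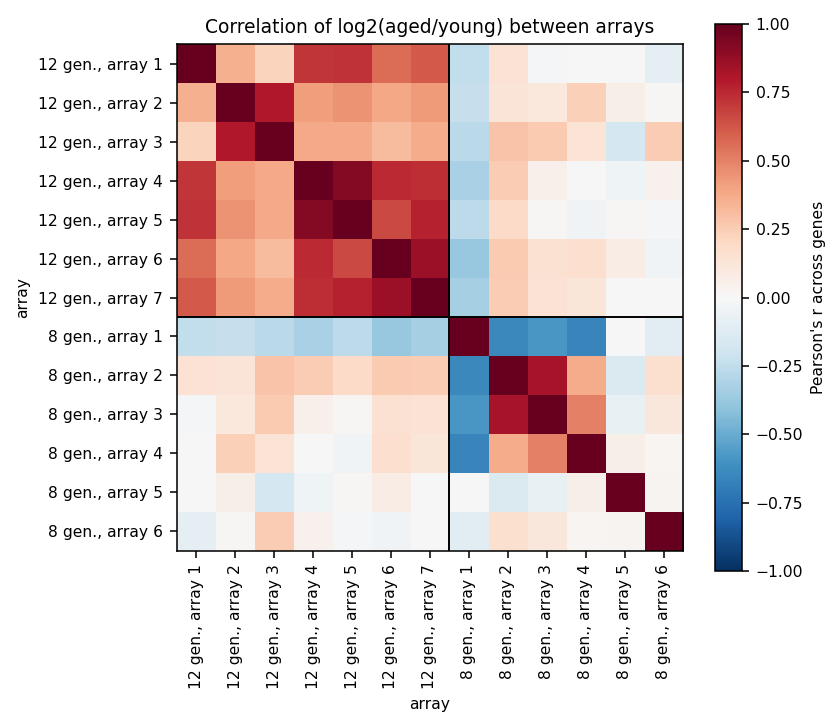
Pearson's r of log2(aged/young) across genes between each pair of the 13 arrays, with the 7 arrays at 12 generations first and the 6 at 8 generations after them; red is positive and blue negative. The 12-generation arrays form a red block (0.226 to 0.921), while 8-generation array 1 is blue against arrays 2, 3 and 4 of its own age (-0.58 to -0.66).

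At 12 generations, 1554 of 5865 genes (26.5%) differed from 8 generations in limma at an adjusted p under 0.05. Of these, 737 were higher at 12 generations (12.6% of genes tested) and 817 were lower (13.9%), and 330 and 346 of them differed by over 2-fold. Without 8-generation array 1, 738 were higher (12.6%) and 824 lower (14%). With that array turned, 837 were higher (14.3%) and 884 lower (15.1%). A call in the same direction was made in all 3 versions for 655 higher and 735 lower genes, and no called gene changed sign in either repeat. Most called genes stood apart from the young control at 12 generations and close to it at 8. The higher genes had a median log2 ratio of 0.86 at 12 generations and -0.11 at 8 generations, and the lower genes -0.80 at 12 generations and 0.10 at 8 generations. For 167 of the higher and 158 of the lower genes, the arrays of the 2 ages did not overlap at all, beside 334 of all 5865 genes tested. Called genes, and those named below for their size, were picked for their difference, which favours such a gap. The median difference over all genes tested was 0.01.

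The number of calls depended on how the arrays were counted. When arrays with adjacent numbers on opposite sides of a scan were averaged as slide partners, which left 4 units at 12 generations and 3 at 8 generations, 548 genes passed, 545 of them shared with the same direction. A fit to the 13 arrays alone gave 870. A block for array set sets the 2 ages against each other only through 18-20-generation array 7. It gave 1027 genes, 508 higher and 519 lower of 5865. Of these, 502 were shared calls, and 137 of the 1554 had the opposite sign. With slide partners averaged, which left fewer genes tested in some lists, 48 of the 49 lists had fewer calls. There 16 of 56 stress-induced genes, 3 of 16 stationary phase genes, 6 of 26 chaperone genes and 1 of 25 autophagy genes were higher. Lower were 4 of 24 ergosterol genes and 13 of 72 and 11 of 74 genes of small and large subunit assembly. Over all genes of that fit, 250 of 5534 were higher and 298 lower, a share that the autophagy genes did not exceed.

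Calls of single genes depended on the block for array set more than on slide partners. Of 104 called genes named in the text, 50 still passed under that block and 54 did not, 29 of them with a value that turned or moved by over 1.5 times. With slide partners averaged, 81 of the 95 that could be tested passed in the same direction and 14 did not. The value under the block is given below beside the genes it moved most. It ended the call with a smaller move for SPG1, ADH2, JEN1, POX1, CIT2, TIR1, IZH4, SNU13, NOP1, TEF4, SUI3, PHO84, VTC1, MEP3, ATG8, HHO1, NET1, CDC14, CAT8, TAF10, CDC19 and PHR1. The same held for STE3, TPK3 and VMA7, as described below.

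**Figure D2:**
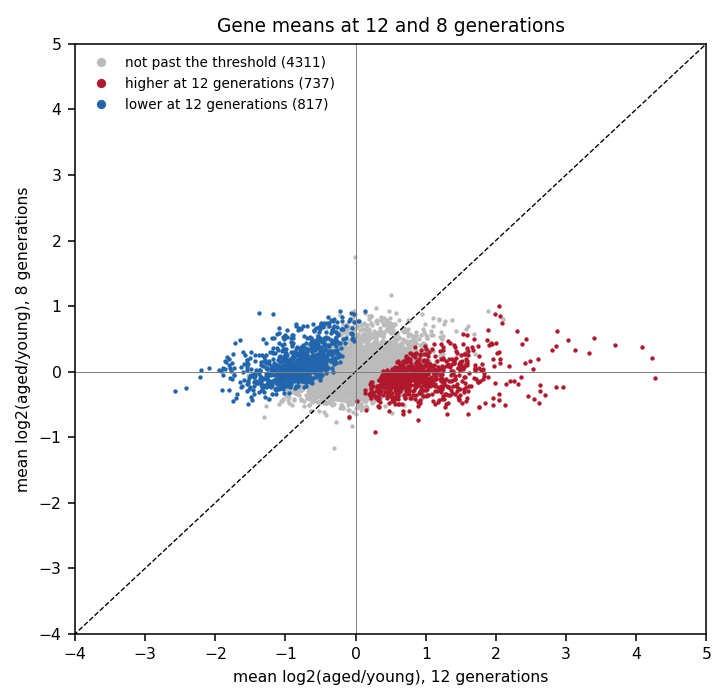
Mean log2(aged/young) of each of 5865 genes at 12 generations (horizontal axis) against its mean at 8 generations (vertical axis), with genes higher at 12 generations in red (737), lower in blue (817) and the others in grey; the dashed line marks equal means. The called genes spread along the 12-generation axis and lie near 0 on the 8-generation axis.

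Each age was also set against its own young controls. At 12 generations, 1364 genes were higher than in young cells (23.3%) and 1263 lower (21.5%). At 8 generations, 0 genes were higher (0%) and 0 lower (0%) in limma as labelled, where the lowest adjusted p was 0.0716 and 748 genes had an unadjusted p under 0.05. That count rested on array 1. Without it, 267 genes were higher (4.55%) and 128 lower (2.18%), and with it turned, 322 were higher (5.49%) and 210 lower (3.58%). Those 267 had a median log2 ratio of 0.19 at 12 generations and 0.78 at 8 generations, and the 128 a median of -0.15 at 12 generations and -0.57 at 8 generations; they were picked for their 8-generation values, which are therefore the larger by choice. As labelled, 14 of the 267 were higher at 12 than at 8 generations and 87 were lower, a split that the same choice bears on.

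The genes that move late in life were then followed back. They were taken from the arrays at 18-20 generations, where 1932 genes were higher (32.9%) and 1832 lower (31.2%) than in young cells, so that neither the 12- nor the 8-generation arrays chose them. Over the 1932 genes that rose late, the median of the gene means was -0.01 in 1-generation cells and -0.00096 at 8 generations, and it reached 0.48 at 12 generations and 0.83 at 18-20. Over the 1832 that fell late, it was 0.0057, 0.0024, -0.49 and -0.91 in the same order of age. At 8 generations these values were 0.02 and -0.0028 without array 1, and 0.02 and -0.01 with it turned. Of the genes that rose late, 675 were higher and 5 lower at 12 than at 8 generations; of those that fell late, 2 were higher and 749 lower.

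Array by array, the late-rising set stood at 0.18 to 0.79 at 12 generations (median 0.45) and at -0.11 to 0.13 at 8 generations (median -0.007). The young-young arrays of 1 generation spanned -0.05 to 0.05, and the arrays at 18-20 generations 0.62 to 1.02. The late-falling set stood at -0.81 to -0.23 at 12 generations and at -0.10 to 0.07 at 8 generations. No array at 12 generations overlapped with an array at 8 generations in either set, and the 8-generation arrays lay on both sides of 0. Within 12 generations, arrays 3 and 2 were lowest in the late-rising set (0.18 and 0.27) and array 1 was highest (0.79). Between 63.0% and 93.8% of the late-rising genes were above 0 on the arrays at 12 generations, and between 38.2% and 59.8% at 8 generations.

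**Figure D3:**
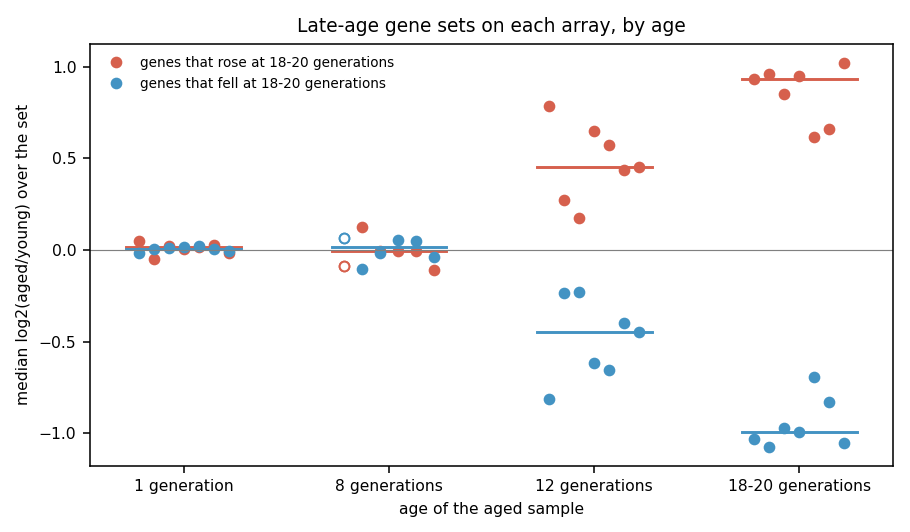
Median log2(aged/young) on each array over the 1932 genes that rose (red) and the 1832 that fell (blue) at 18-20 generations, by age, with a line at the median of the arrays and open circles for 8-generation array 1. In the red set the 7 arrays at 12 generations run from 0.18 to 0.79 and reach into the range of the 18-20-generation arrays (0.62 to 1.02), while the 6 arrays at 8 generations stay between -0.11 and 0.13.

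Genes for acetate and ethanol use were higher at 12 generations in 15 of 25 cases. Of 25 genes of gluconeogenesis, the glyoxylate cycle and acetate use, 15 were higher than at 8 generations and 0 lower (13 and 0 without 8-generation array 1, 12 and 0 with it turned). Their median log2 ratio was 1.54 at 12 generations and 0.08 at 8 generations, a median difference of 1.44. ADY2, an acetate transporter, had 1.36 as its lowest, 4.80 as its median and 5.39 as its highest log2 ratio on 6 arrays at 12 generations, against -1.55, -0.13 and 1.06 at 8 generations. The 2 ages did not overlap, and the difference was 4.37 ± 0.48 (SE; adjusted p = 1.55e-06). Its spot was saturated on 1 of those 6 arrays, and the young channel was above background on 4 of them, so the size of this difference is uncertain. Saturation on 1 array at 12 generations also touched ADH2, POT1, SPG1, SPG4, MF(ALPHA)1, HSP42, CIT2, STF2, HTB1 and PST1. For SPG4, JEN1, ADR1, CAT8 and PHM7, among others, the young channel was above background on 4 or 5 of 7 arrays there. ADH2, the alcohol dehydrogenase that oxidises ethanol, ran from 2.96 to 5.08 at 12 generations (median 3.52) and from -2.03 to 2.12 at 8 generations (median 0.49), a difference of 3.29 ± 0.54 (adjusted p = 8.36e-05). Its 8-generation arrays split, with 1.65 to 2.12 on arrays 2, 3 and 4, -0.67 and -1.01 on arrays 5 and 6 and -2.03 on array 1. Its mean at 8 generations was 0.40 as labelled and 0.99 with array 1 turned. REG2, a regulatory subunit of the GLC7 phosphatase in glucose repression, ran from 1.27 to 2.73 at 12 generations and from -1.94 to 0.23 at 8 generations (difference 2.64 ± 0.27, adjusted p = 1.92e-07).

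Lactate genes moved alongside. Of 11 genes for lactate and other respiratory substrates, 6 were higher at 12 generations and 0 lower in each of the 3 versions, with a median difference of 0.89. CYB2, the cytochrome b2 that oxidises L-lactate in mitochondria, ran from 1.25 to 4.64 at 12 generations (median 3.41) and from -1.87 to 1.12 at 8 generations (median -0.20), a difference of 3.18 ± 0.45. JEN1, the lactate and pyruvate transporter, ran from 1.31 to 3.95 at 12 generations and from -1.78 to 0.78 at 8 generations (2.92 ± 0.42). Neither gene overlapped between the ages, while DLD1, a D-lactate dehydrogenase, did (difference 1.33 ± 0.25, adjusted p = 0.000267).

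Genes of fatty acid breakdown in peroxisomes were higher in part. Of 36 genes of beta-oxidation and peroxisome biogenesis, 14 were higher at 12 generations and 2 lower (15 and 2 without 8-generation array 1, 14 and 2 with it turned), with a median difference of 0.47. Over all genes, 12.6% were higher and 13.9% lower as labelled. Under the block for array set, 3 of the 36 were higher and 0 lower. That share of higher genes was no larger than over all genes of that fit (508 of 5865). POT1, the thiolase that ends each turn of beta-oxidation, had 1.73, 4.96 and 5.45 as lowest, median and highest value at 12 generations, against -1.22, 0.25 and 1.42 at 8 generations. All 12-generation arrays were above all 8-generation arrays, with arrays 2 and 3 at 2.39 and 1.73 and the other 5 at 4.92 or more. The difference was 4.02 ± 0.55 (adjusted p = 1.66e-05), with 1 array saturated at 12 generations, and it was 2.33 under the block for array set (adjusted p = 0.227). POX1, the acyl-CoA oxidase that starts the cycle, differed by 2.88 ± 0.52 without overlap, and FOX2, the multifunctional enzyme between them, by 2.41 ± 0.48 with overlap (1.57 under the block, adjusted p = 0.322). At 8 generations POX1 stood at 1.46 to 1.62 on arrays 2, 3 and 4, and at -1.49, 0.27 and -0.66 on arrays 1, 5 and 6. With slide partners averaged, 5 of 34 peroxisomal and 9 of 23 gluconeogenic genes were higher at 12 generations and 0 of either were lower; POT1 and ADY2 were not tested there.

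**Figure D4:**
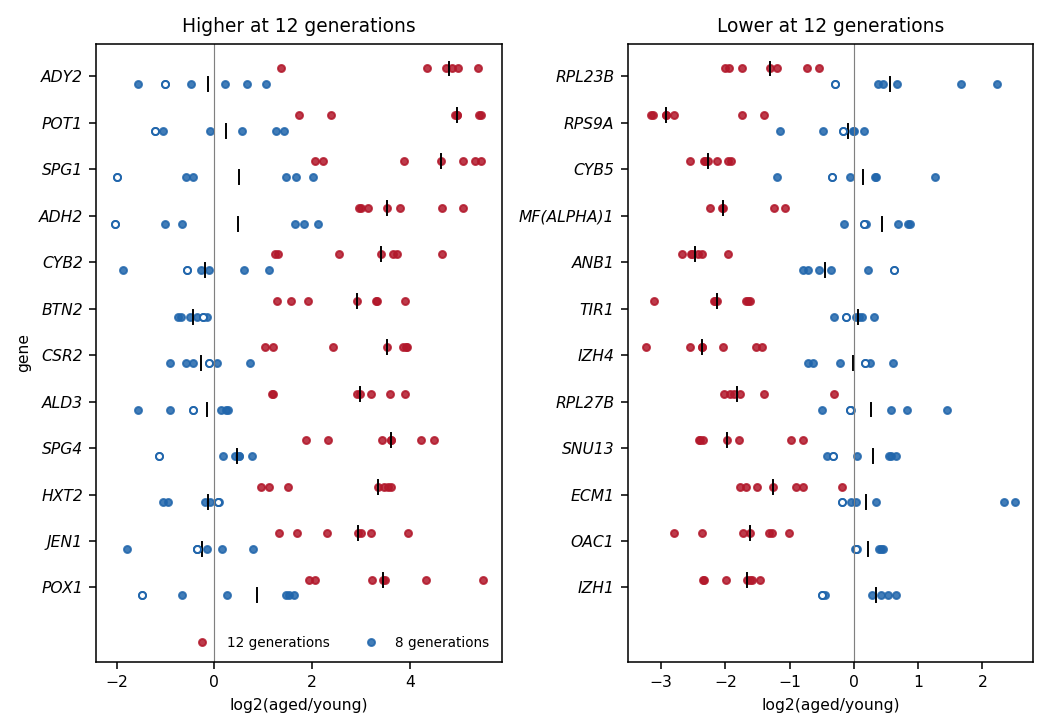
Log2(aged/young) on each array at 12 generations (red) and 8 generations (blue) for the 12 genes with the largest positive (left) and the largest negative (right) difference under the array limits; black ticks are medians and open circles 8-generation array 1. None of the 12 higher genes overlaps between the ages; among the lower genes RPL27B and ECM1 do.

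Hexose transporter genes were higher in part. Of 22 genes for hexose transporters and sensors, 11 were higher at 12 generations and 1 lower, in each of the 3 versions, and the median of the list stood at 0.45 to 1.38 on the arrays at 12 generations and at -0.55 to 0.23 at 8 generations. For 9 of the 22, the probe lists several genes, so that the counts of this list are uncertain. HXT2, a high-affinity glucose transporter, had 0.96, 3.35 and 3.62 as lowest, median and highest value at 12 generations, against -1.04, -0.14 and 0.09 at 8 generations (difference 2.96 ± 0.40, adjusted p = 7.93e-06; 1.72 under the block for array set, 0.168). Arrays 1, 2 and 3 were low at 12 generations (0.96 to 1.50) and arrays 4 to 7 high (3.35 to 3.62). CSR2, an adaptor of the RSP5 ubiquitin ligase in the removal of nutrient transporters, ran from 1.04 to 3.93 at 12 generations (median 3.53) and from -0.91 to 0.72 at 8 generations (median -0.27), a difference of 3.08 ± 0.38 without overlap. HXT5, a transporter made in slow growth, and MTH1, a repressor of hexose transporter genes, differed by 1.62 ± 0.32 and 1.52 ± 0.29, with overlapping ages. Under a block for array set, 2 of the 22 were higher, and HXT5 stood at 1.05 (adjusted p = 0.298).

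Of 18 glycolytic and fermentation genes, 4 were higher at 12 generations and 0 lower (5 and 6 higher in the repeats). Their median log2 ratio was 0.21 at 12 generations and -0.29 at 8 generations, and the median difference of 0.57 turned to -0.07 when arrays were centred on their median in place of loess. HXK1, a hexokinase that glucose represses, ran from 0.54 to 2.88 at 12 generations and from -1.27 to 0.02 at 8 generations (difference 1.99 ± 0.32, adjusted p = 5.87e-05).

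Mitochondrial genes did not move as 1 block. Of 16 genes of the tricarboxylic acid cycle, 6 were higher and 0 lower (5 and 6 higher in the repeats), and the list medians of the arrays did not overlap by a narrow margin (0.0969 to 0.67 at 12 generations, -0.37 to 0.0958 at 8 generations). CIT1, the mitochondrial citrate synthase, had the lowest adjusted p of all genes. It ran from 1.40 to 2.30 on 6 arrays at 12 generations (median 1.60) and from -0.80 to 0.29 at 8 generations (median -0.21), a difference of 1.90 ± 0.17 (adjusted p = 6.36e-08). CIT2, the peroxisomal citrate synthase that marks the retrograde response from mitochondria to nucleus, differed by 2.50 ± 0.42 without overlap. Of 13 retrograde genes, 4 were higher and 0 lower (5 higher in each repeat). Of 26 respiratory chain genes 5 were higher and 0 lower (4 and 5 higher in the repeats), with a median difference of 0.20. Of 17 ATP synthase genes 2 were higher in each of the 3 versions (11.8%), beside 12.6% of all genes as labelled. The 2 were STF1, an inhibitor of the enzyme's ATP hydrolysis, and STF2, which stood at -0.10 under the block for array set. Of 73 genes of the mitochondrial ribosome, 6 were higher and 1 lower (5 and 1, and 8 and 1, in the repeats), below the 12.6% and 13.9% of all genes. Their median log2 ratio was 0.31 at 12 generations and 0.17 at 8 generations, and the median difference of 0.13 was 0.03 without 8-generation array 1 and -0.01 with it turned. Against young cells, 32 of the 73 were higher at 12 generations and 0 at 8 generations as labelled, while 13 passed at 8 generations without array 1 and 18 with it turned. MRPL28, a protein of its large subunit, had the largest difference of the list at 1.38 ± 0.21 (adjusted p = 2.82e-05; 0.87 under the block, 0.181).

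Stress-induced genes were called higher in 30 of 58 cases. Of 58 genes of the environmental stress response that stress induces, 30 were higher at 12 generations, 1 was lower and 27 did not pass (28 higher and 0 lower without 8-generation array 1, 31 and 0 with it turned), and their median was 0.81 at 12 generations and -0.09 at 8 generations. ALD3, a stress-induced aldehyde dehydrogenase, ran from 1.17 to 3.89 at 12 generations (median 2.98) and from -1.56 to 0.27 at 8 generations (median -0.14), a difference of 3.05 ± 0.39 (adjusted p = 3.93e-06). HSP12, a membrane-protecting small heat shock protein, ran from 1.19 to 3.23 at 12 generations and from -1.53 to -0.06 on 5 arrays at 8 generations (2.47 ± 0.32). DDR2, a multistress protein, differed by 2.85 ± 0.40 and HSP42, a small chaperone that sorts aggregates, by 2.29 ± 0.36. On arrays 2 and 3 at 12 generations the list had its lowest medians, down to 0.006, and the other 5 arrays reached up to 1.55. The spread of the 8-generation medians was -0.40 to 0.24, so the arrays of the 2 ages overlapped for the list while they did not for ALD3, HSP12, DDR2 or HSP42.

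Genes named for the stationary phase belonged with these. Of 20, 10 were higher and 0 lower (9 and 1 in each repeat), with a median difference of 1.12 that came to 0.73 with 8-generation array 1 turned. SPG4, needed for survival in stationary phase, ran from 1.87 to 4.49 at 12 generations (median 3.60) and from -1.12 to 0.76 at 8 generations (median 0.46), with the lowest of these on array 1 and the other 5 at 0.17 to 0.76. Its difference was 3.04 ± 0.32 (adjusted p = 4.49e-07). SPG1, named for the same requirement, ran from 2.06 to 5.45 at 12 generations and from -1.98 to 2.02 at 8 generations, where arrays 2, 3 and 4 stood at 1.47 to 2.02. Its ages did not overlap by a narrow margin, and its difference of 3.71 ± 0.60 came to 3.07 with array 1 turned.

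Protein quality control genes were higher in part. Of 26 cytosolic chaperone genes, 10 were higher and 1 lower (12 and 1 without 8-generation array 1, 12 and 2 with it turned). BTN2, which sorts aggregated proteins, ran from 1.29 to 3.89 at 12 generations (median 2.92) and from -0.74 to -0.15 at 8 generations (median -0.43). It was above the young control on all 7 arrays at 12 generations and below it on all 6 at 8 generations, a difference of 3.09 ± 0.34 (adjusted p = 4.91e-07). FES1, a nucleotide exchange factor of HSP70, and SIS1, a J-protein partner of HSP70, differed by 2.39 ± 0.29 and 1.55 ± 0.26, and SIS1 by 0.93 under the block for array set (adjusted p = 0.27). Of 37 proteasome genes, 10 were higher and 0 lower (7 and 8 higher in the repeats). RPN4, the activator of proteasome genes, differed by 1.76 ± 0.37, and RPT4, an ATPase of the regulatory particle, by 0.80 ± 0.17. Of 27 core autophagy genes, 10 were higher and 1 lower (9 and 1 in each repeat), but 1 of 25 was higher with slide partners averaged and 2 of 27 under the block. ATG8, the lipid-bound protein of the growing autophagosome, differed by 1.39 ± 0.34 (adjusted p = 0.00341), and it and ATG5 no longer passed with slide partners averaged (adjusted p = 0.0835 and 0.078). Under the block ATG5 did not pass either and stood at 0.85.

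Storage carbohydrates and antioxidants gave smaller groups. Of 19 genes of trehalose and glycogen metabolism, 8 were higher and 0 lower (9 and 10 higher in the repeats), a median of 0.42 at 12 generations and -0.21 at 8 generations. GAC1, which targets the GLC7 phosphatase to glycogen synthase, differed by 1.62 ± 0.43 and GLC3, the glycogen branching enzyme, by 1.42 ± 0.33, both with overlapping ages. With slide partners averaged neither passed (adjusted p = 0.0951 and 0.0788), and 2 of the 19 genes were higher. Of 30 antioxidant genes, 6 were higher and 2 lower (6 and 2, and 7 and 2, in the repeats). CTT1, the cytosolic catalase, differed by 2.25 ± 0.42 (adjusted p = 0.000276) and AHP1, a thiol peroxidase, by 1.65 ± 0.27 (1.05 under the block for array set, adjusted p = 0.223). GRX4, a glutaredoxin of iron regulation, went the other way. It ran from -1.22 to -0.78 at 12 generations and from -0.20 to 1.99 at 8 generations (difference -1.51 ± 0.25, adjusted p = 0.000103).

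**Figure D5:**
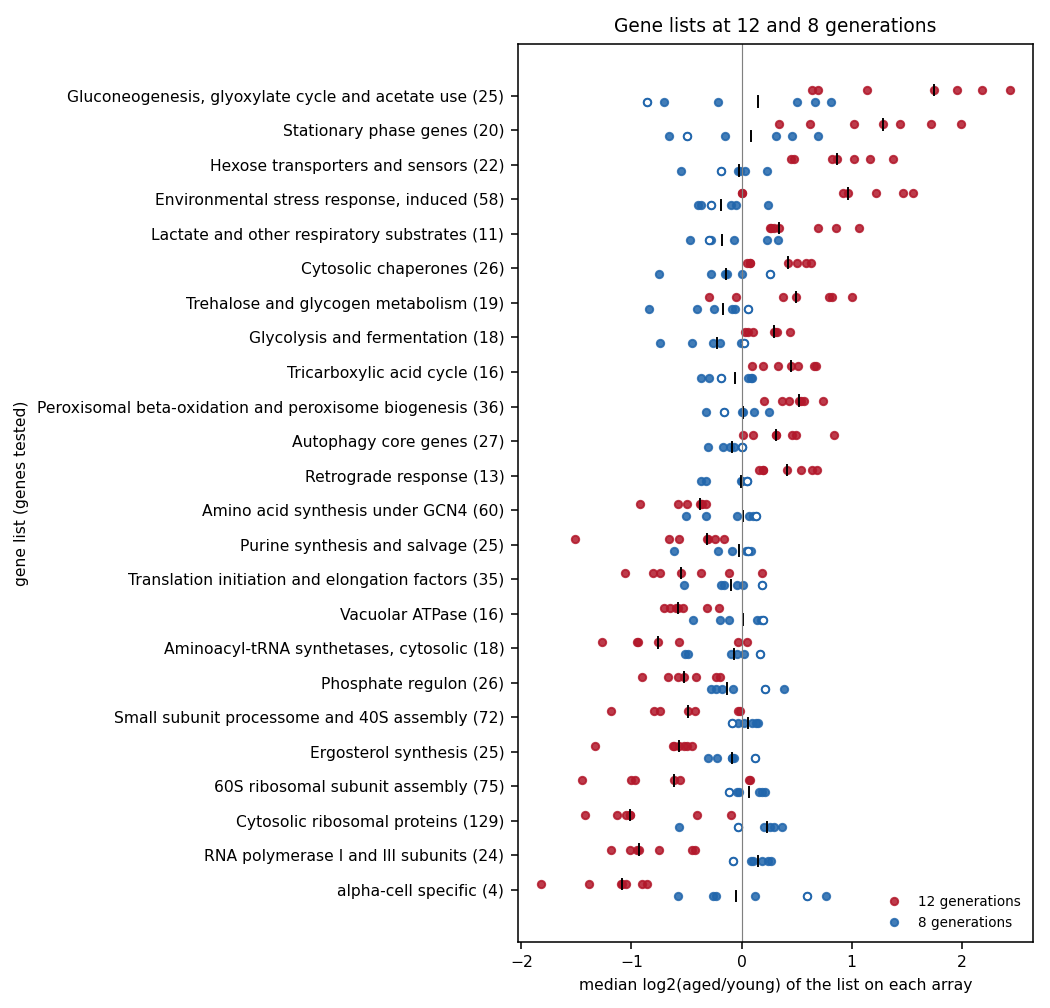
Median log2(aged/young) of 24 gene lists on each array at 12 generations (red) and 8 generations (blue), ordered by the median difference, with black ticks at the median of the arrays and open circles for 8-generation array 1; the number of genes tested is in brackets. The lists at the top have their 12-generation arrays to the right (gluconeogenesis 0.64 to 2.44), those at the bottom to the left (RNA polymerase I and III -1.19 to -0.42), and the 8-generation arrays scatter about 0.

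Ribosomal protein genes were lower at 12 generations in 77 of 129 cases. Of 129 cytosolic ribosomal protein genes tested, 0 were higher and 77 lower (77 without 8-generation array 1, 81 with it turned), set beside 13.9% lower over all genes. Their median was -0.89 at 12 generations and 0.07 at 8 generations, for a median difference of -0.98. The list medians overlapped between the ages, with -1.42 to -0.10 at 12 generations and -0.56 to 0.37 at 8 generations. RPS9A, a protein of the small subunit, had -3.16, -2.92 and -1.39 as lowest, median and highest value at 12 generations, against -1.14, -0.09 and 0.16 at 8 generations. All 12-generation arrays were below all 8-generation arrays, and the difference was -2.27 ± 0.29, or 4.83-fold lower (adjusted p = 3.93e-06). RPL23B, of the large subunit, ran from -2.00 to -0.54 at 12 generations (median -1.30) and from -0.30 to 2.22 at 8 generations (median 0.56), a difference of -2.28 ± 0.35 that came to -0.47 under the block for array set (adjusted p = 0.674). Its 8-generation mean was lifted by arrays 5 and 6 at 1.67 and 2.22, with the other arrays at -0.30 to 0.67. RPL27B differed by -2.12 ± 0.29 with overlapping ages, since array 2 at 12 generations stood at -0.30, and by -1.39 under the block (adjusted p = 0.123). Many of these genes have a near-identical copy, and 30 of the 129 were measured by probes that list several genes. A block for array set turned the median difference of the list to 0.11, with 10 genes higher and 19 lower; with slide partners averaged it was -1.01, with 0 and 42.

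The machinery that makes ribosomes was lower too. Of 24 subunit genes of RNA polymerases I and III, which transcribe ribosomal RNA and transfer RNA, 0 were higher and 21 lower (21 and 22 in the repeats), the largest share of called genes among the 49 lists. Their list medians did not overlap, with -1.19 to -0.42 at 12 generations and -0.08 to 0.26 at 8 generations, and their median difference of -1.15 was -1.27 under a block for array set and -1.09 with slide partners averaged. RPA12, of polymerase I, ran from -1.86 to -1.28 at 12 generations (median -1.61) and from -0.82 to 0.79 at 8 generations (median 0.11), a difference of -1.69 ± 0.20 (adjusted p = 1.49e-06). RPA135, the second-largest subunit of polymerase I, differed by -1.68 ± 0.25, and RPC17, of polymerase III, by -1.82 ± 0.35, both without overlap. Of 72 genes of small subunit processing and assembly, 0 were higher and 34 lower (34 and 38 in the repeats), and of 75 genes of large subunit assembly, 0 and 39 (35 and 40). Under the block for array set, 6 of the 72 and 5 of the 75 were lower, and 1 and 3 were higher. Those lower shares were no larger than over all genes of that fit (519 of 5865). The median differences there were -0.45 and -0.56. Of the 24 polymerase genes, 11 were lower under the block. SNU13, a protein of box C/D snoRNPs and of the spliceosome, ran from -2.42 to -0.79 at 12 generations (median -1.97) and from -0.42 to 0.65 at 8 generations (median 0.30), a difference of -2.06 ± 0.26. NOP1, the fibrillarin that methylates ribosomal RNA, differed by -1.70 ± 0.28, with overlapping ages. ECM1, an export factor of the large subunit, ran from -1.77 to -0.19 at 12 generations and from -0.19 to 2.50 at 8 generations, with 2.33 and 2.50 on 8-generation arrays 5 and 6 alone and at most 0.35 on the others. Its difference was -2.06 ± 0.38 (adjusted p = 0.000228).

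Translation factors and the enzymes that charge transfer RNA followed at a smaller size. Of 35 translation initiation and elongation factors, 0 were higher and 11 lower (11 and 12 in the repeats), with a median difference of -0.44 that turned to 0.14 under a block for array set. TEF4, a subunit of elongation factor 1B, differed by -1.10 ± 0.25 and SUI3, the beta subunit of initiation factor 2, by -1.08 ± 0.21. Of 18 cytosolic aminoacyl-tRNA synthetases, 0 were higher and 6 lower in each of the 3 versions. MES1, the methionyl-tRNA synthetase, ran from -3.07 to -0.84 at 12 generations and from -0.70 to 0.64 at 8 generations (difference -1.63 ± 0.28, adjusted p = 0.000131).

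Sterol and membrane lipid genes were a further lower group. Of 25 genes of ergosterol synthesis, 0 were higher and 8 lower (1 and 7 without 8-generation array 1, 2 and 10 with it turned). Their list medians did not overlap, with -1.33 to -0.45 at 12 generations and -0.31 to 0.13 at 8 generations, but the median difference of -0.66 turned to 0.02 under a block for array set. ERG24, the C-14 sterol reductase, ran from -2.01 to -0.76 at 12 generations (median -1.41) and from -0.45 to 0.35 at 8 generations (median -0.15), a difference of -1.35 ± 0.19 (adjusted p = 1.65e-05). CYB5, the cytochrome b5 that feeds electrons to sterol and lipid enzymes, differed by -2.23 ± 0.41, with a difference of 0.42 under a block for array set. Of 28 genes of fatty acid and phospholipid synthesis, 1 was higher and 8 lower (0 and 8 in each repeat). ELO3, an elongase for very long chain fatty acids, ran from -1.81 to -1.33 at 12 generations (median -1.56) and from -0.51 to 0.53 at 8 generations (median 0.02), a difference of -1.62 ± 0.17 (adjusted p = 2.59e-07). Genes of the hypoxic set were mixed, with 4 of 26 higher (15.4%) and 7 lower (26.9%), beside 12.6% and 13.9% of all genes. The repeats gave 4 and 8, and 5 and 9. ANB1, the hypoxic form of initiation factor 5A, ran from -2.67 to -1.96 on 6 arrays at 12 generations and from -0.79 to 0.63 at 8 generations (difference -2.16 ± 0.30). TIR1, a cell wall mannoprotein, differed by -2.15 ± 0.31, and IZH4 and IZH1, membrane proteins of zinc metabolism, by -2.14 ± 0.31 and -2.01 ± 0.21, and none of these 4 overlapped between the ages.

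Biosynthetic genes fell in part. Of 60 genes of amino acid synthesis under GCN4, 2 were higher and 14 lower (1 and 15 without 8-generation array 1, 2 and 18 with it turned), 23.3% lower beside 13.9% over all genes, and the median difference of -0.42 turned to 0.03 under a block for array set. OAC1, the mitochondrial oxaloacetate carrier, ran from -2.80 to -1.01 at 12 generations (median -1.62) and from 0.02 to 0.45 at 8 generations (median 0.22), a difference of -2.02 ± 0.20 (adjusted p = 1.08e-07). It was below the young control on all 7 arrays at 12 generations and above it on all 6 at 8 generations. ILV5, an enzyme of branched-chain amino acid synthesis, ran from -2.54 to -0.87 at 12 generations and from -0.27 to 0.55 at 8 generations (-2.00 ± 0.22). Of 25 purine genes, 2 were higher and 8 lower (2 and 8, and 2 and 9, in the repeats), with a median difference of -0.44 that turned to 0.54 under a block for array set. AAH1, the adenine deaminase that growing cells express, differed by -1.94 ± 0.28 (adjusted p = 1.72e-05; -1.07 under the block, 0.223).

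Nutrient transport gave single large changes. Of 26 genes of the phosphate regulon, 1 was higher and 10 lower (2 and 10 in each repeat). PHO84, the high-affinity phosphate transporter, ran from -2.00 to -1.58 at 12 generations (median -1.71) and from -1.16 to 1.25 at 8 generations (median -0.09), a difference of -1.85 ± 0.28 (adjusted p = 4.59e-05), and VTC1, of the polyphosphate polymerase, differed by -1.44 ± 0.31. PHM7, a membrane protein under the same regulon, went the other way at 2.16 ± 0.42. Of 25 genes under nitrogen catabolite repression, 4 were higher (16%) and 4 lower (16%), near the 12.6% and 13.9% of all genes. The repeats gave 4 and 2, and 6 and 2. GDH2, the glutamate dehydrogenase that breaks down glutamate, ran from 0.87 to 2.20 at 12 generations and from -0.44 to -0.08 at 8 generations (1.81 ± 0.21, adjusted p = 1.15e-06), while MEP3, an ammonium permease, differed by -1.18 ± 0.25.

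The list of daughter-specific and cell separation genes changed in both directions. In these bulk samples, fewer cells of a type and less RNA per cell cannot be told apart. Of 14 genes of the daughter-specific and cell separation list, 3 were higher and 6 lower (3 and 6, and 4 and 6, in the repeats). The list medians were -0.59 to -0.20 at 12 generations and -0.27 to 0.16 at 8 generations. DSE4, a daughter-specific glucanase that helps to separate daughter from mother, ran from -1.92 to -1.34 at 12 generations (median -1.48) and from -0.22 to 0.82 at 8 generations (median 0.21), a difference of -1.71 ± 0.18 (adjusted p = 1.92e-07). SUN4, a septation glucanase, differed by -1.69 ± 0.22, and PST1, a cell wall protein, by 1.37 ± 0.32 with overlap (0.33 under the block for array set, adjusted p = 0.79). Of 21 cyclins and cyclin inhibitors, 1 was higher (4.8%) and 4 lower (19.0%) in each of the 3 versions. Over all genes the shares as labelled were 12.6% and 13.9%. Among the lower were CLB1, a mitotic cyclin (-1.34 ± 0.20), and FAR1, an inhibitor of the G1 cyclin kinase that pheromone activates (-1.46 ± 0.30).

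Of the mating type markers, 3 alpha-cell genes passed as lower at 12 generations and no a-cell gene passed. The mating type is worded in the series text in a way that can be read more than one way, so both marker lists were followed. Of 4 alpha-cell genes, 3 were lower in each of the 3 versions. MF(ALPHA)1, the main alpha-factor gene, ran from -2.23 to -1.07 on 5 arrays at 12 generations (median -2.04) and from -0.15 to 0.86 at 8 generations (median 0.44), a difference of -2.16 ± 0.32 (adjusted p = 3.58e-05). STE3, the a-factor receptor of alpha cells, ran from -2.05 to -0.80 at 12 generations and from -0.64 to 0.61 at 8 generations (-1.08 ± 0.19, adjusted p = 0.000148). MF(ALPHA)2 differed by -1.23 ± 0.30 and SAG1, the alpha agglutinin, by -0.40 ± 0.29 (adjusted p = 0.322). Under the block for array set 0 of the 4 passed, with MF(ALPHA)1 at -0.34 (adjusted p = 0.717), STE3 at -0.91 (0.131) and MF(ALPHA)2 at 0.07 (0.952). With slide partners averaged 2 of the 4 passed, MF(ALPHA)1 and STE3. Of 7 a-cell genes, 0 were higher and 0 lower in each of the 3 versions, and their median was 0.36 at 12 generations and 0.45 at 8 generations. The alpha-cell genes were above background in both channels on every array that measured them, the a-cell genes on 1 to 5 of 7 arrays at 12 generations and on 3 to 6 of 6 at 8 generations.

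Histone and silencing genes moved little as lists. Of 11 histone genes, 3 were higher and 0 lower (3 and 1 in each repeat), and the median difference of 0.07 was -0.05 and -0.09 in the repeats. HTB1, a histone H2B gene, ran from 0.48 to 2.08 at 12 generations and from -0.96 to 0.30 at 8 generations (1.52 ± 0.28, adjusted p = 0.000505; 0.41 under the block for array set, 0.674), and HHO1, the linker histone, differed by 0.96 ± 0.17. Of 19 genes of silencing and ribosomal DNA stability, 1 was higher and 4 lower (1 and 4, and 0 and 4, in the repeats). FOB1, which blocks replication forks in the ribosomal DNA and is known for its effect on lifespan, ran from -0.83 to -0.07 at 12 generations and from -0.13 to 1.76 at 8 generations. Its difference was -0.90 ± 0.24 (adjusted p = 0.00653), and 8-generation arrays 5 and 6 (1.34 and 1.76) stood above the other 4 (-0.13 to 0.17). The call was lost without those 2 arrays (-0.35, adjusted p = 0.106), under the block for array set (-0.45, 0.59), and in 3 further settings. NET1 and CDC14, which act together in the nucleolus at mitotic exit, differed by -0.73 ± 0.16 and -0.70 ± 0.15. SIR2, the histone deacetylase of silencing, had means of -0.34 at 12 generations and -0.31 at 8 generations. Its difference of -0.03 ± 0.16 had an adjusted p of 0.909.

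Of 13 regulators that could be tested, FOB1 and SIR2 included, 3 were higher, 2 were lower and 8 did not pass. RIM15, the kinase that drives entry into quiescence, ran from 1.07 to 2.89 at 12 generations (median 1.52) and from -0.71 to 0.55 at 8 generations (median 0.26), a difference of 1.60 ± 0.25 (adjusted p = 4e-05). ADR1, the activator of ADH2 and peroxisomal genes, ran from 0.27 to 1.23 at 12 generations and from -1.29 to 0.24 at 8 generations (1.27 ± 0.21, adjusted p = 6.8e-05). PDE1, a cyclic AMP phosphodiesterase, differed by 1.64 ± 0.26 (adjusted p = 5.42e-05). CAT8, the activator of gluconeogenic genes, differed by 1.04 ± 0.38 (adjusted p = 0.0414), and the call was lost without any of 6 of the 13 arrays, 8-generation array 1 among them (adjusted p = 0.0665), and with that array turned (0.064). With slide partners averaged CAT8 did not pass either (adjusted p = 0.215). TPK3, which encodes 1 of the protein kinase A catalytic subunits, was near the young control at 12 generations and above it at 8 generations, with -0.56 to 0.46 at 12 generations (median -0.003) and -0.10 to 1.45 at 8 generations (median 0.76), a difference of -0.78 ± 0.21 (adjusted p = 0.00765). That call was lost in 6 settings, among them slide partners averaged (0.063), the block for array set (0.129) and without 8-generation arrays 5 and 6 (0.0918).

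The remaining regulators did not pass as labelled. MIG1, the repressor of glucose-repressed genes, had a difference of 0.94 ± 0.60 (adjusted p = 0.264). Its 12-generation arrays split widely, with -1.16 and -1.61 on arrays 2 and 3 and 1.88 to 2.37 on the other 5, and it passed without array 3 (difference 1.47, adjusted p = 0.0488). Under the block for array set MIG1 turned to -0.85. The difference was 0.76 ± 0.31 for MSN4 (adjusted p = 0.0719, 0.0441 with 8-generation array 1 turned) and -0.44 ± 0.19 for TOR1 (0.0873, 0.036 with it turned). MSN4 did not pass in 27 of 38 other settings. It passed without 12-generation array 2 (0.0208) or 3 (0.0389) and under the block, where it stood at 2.50. MSN2 (0.30), SNF1 (0.19), TPK2 (0.15) and SCH9 (-0.16) had adjusted p-values of 0.467, 0.57, 0.672 and 0.53. HAP4 had too few unmarked arrays to be tested.

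A smaller set of genes had opposite signs at the 2 ages. Under limits of 0.3 on both means and the same limits on arrays, 216 of the 1554 called genes were on opposite sides of the young control, 124 below it at 12 and above it at 8 generations, and 92 the reverse. RPL23B and ECM1 led them by the size of the 8-generation mean. ARF1, a GTPase of vesicle transport, ran from -1.55 to 0.46 at 12 generations and from -0.28 to 2.04 at 8 generations (-1.22 ± 0.35, adjusted p = 0.0104), and it stood at 0.91 under a block for array set. TAF10, a subunit of the TFIID and SAGA complexes, had 2.31 and 2.67 on 8-generation arrays 5 and 6 and at most 0.04 on the other 4, and its difference of -1.10 ± 0.37 (adjusted p = 0.0266) was lost in 12 of 38 other settings, without array 5 (-0.71, adjusted p = 0.142) or without array 6 (-0.75, 0.0727) among them. VPS74, a Golgi protein, had 3.52 on 8-generation array 6 and at most 0.70 on the others (-1.13 ± 0.37, adjusted p = 0.0229), and its difference was -0.63 without that array (adjusted p = 0.0182) and -0.18 under the block (0.902).

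Single arrays moved the total count of calls within limits. It ran from 1276 without 12-generation array 5 to 1701 without 12-generation array 3. Without 8-generation arrays 5 and 6 together it was 1383, and without 12-generation arrays 2 and 3 it was 1932. The array set at 8 generations and the age of its cells cannot be told apart by 1 linking array, and its part in the differences above was not tested beyond the block.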

How the data were processed

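The deposited scanner files give, per the file headers, the median intensity of each of 6580 spots and its local background in the red and the green channel, the percent of pixels above background and saturated, and a mark for spots set aside; these are neither corrected nor normalized. The authors' deposited table gives processed log2 ratios, whose direction and scale were found by setting each column against its array, and its centring is unknown here. It served as an alternative. Its 8-generation columns 1 and 3 match each other's scanner file (r = 0.970 and 0.945) and run against their own (-0.582 and -0.574). By the labels both arrays have inverted dyes and 1 age, so exchanging them changes no value as long as those labels hold. The exchange does not settle the direction of array 1. The title and channel labels of 8-generation array 3 give inverted dyes, which its description omits.

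With R 4.3.3 and limma 3.58.1, background was corrected by normexp (offset 50), each array normalized by loess (span 0.3), marked spots removed (174 to 1076 an array at 12 generations, 227 to 770 at 8 generations), ratios turned to aged over young by the channel labels, and spots of a gene averaged. A gene was tested with at least 3 unmarked arrays at every age (5865 of 6388 names; 5849 names matched RefSeq, assembly R64, used for symbols alone). One linear model over all 27 arrays held 1 mean per age plus a term for dye. The difference between 12 and 8 generations was tested in limma by empirical Bayes, two-sided, with Benjamini-Hochberg adjustment over all genes. The fit was tested on simulated data. The number of arrays limits the precision (median SE of a difference 0.23).

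The comparison, the 49 gene lists and the genes named were chosen with earlier results of these data known. Named genes are the 12 largest differences in each direction among calls on probes of 1 gene with at least 5 unmarked arrays at each age and both channels above background on at least 4 at 12 and 3 at 8 generations, up to 4 called members per list, the 5 called genes of opposite sign with the largest 8-generation mean, and a set of regulators and mating type markers. Lists are described by counts and medians with no test. A spot counted as above background with over 50% of its pixels over background plus 2 SD. The 322 probes that list several genes were tested, not named. Same-numbered arrays of the 2 ages did not deviate together (r of -0.244 to 0.100).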

Additional observations from a re-analysis of the deposited data

Results flagged for a closer look

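The difference between the 2 ages itself calls for a closer look, since 1554 genes differed between 12 and 8 generations in limma under the same contrast with young cells. Single arrays also stood apart. The values of 1 group on its own arrays, for a named gene or a list median, were set against Dixon's limit for the gap of the highest or lowest array, and 20 of 314 such groups (6.37%) passed it, where chance flags about 1 in 20. At 12 generations, array 1 was the array that stood apart for STE3 (-2.05, nearest array -1.26), DIT1 (3.13, nearest 1.93) and the list medians of ergosterol synthesis (-1.33, nearest -0.62), fatty acid and phospholipid synthesis (-0.53, nearest -0.27), purine genes (-1.51, nearest -0.66) and histones (0.71, nearest 0.28). Arrays 2 and 3 stood apart at 12 generations for ADY2 (1.36 on array 3, nearest 4.34), TIR1 (-3.11 on array 3, nearest -2.18), RPL27B (-0.30 on array 2, nearest -1.39) and TKL1 (-1.04 on array 2, nearest -0.67). At 8 generations, array 1, whose direction is not settled, stood apart for SPG4 (-1.12, nearest 0.17) and the median of meiosis genes (-0.13, nearest 0.13). Array 5 stood apart for HSP12 (-1.53, nearest -0.45), CTT1 (-1.98, nearest -0.66) and RPN4 (-1.54, nearest -0.22). Array 6 stood apart for VPS74 (3.52, nearest 0.70), VMA7 (0.81, nearest 0.22), HMX1 (-1.88, nearest -0.46), HTB1 (-0.96, nearest -0.09) and the median of fatty acid and phospholipid synthesis (-0.30, nearest -0.04). The reasons were not tested.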

How the results depend on the processing

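In limma, 1554 genes passed as labelled, 737 higher and 817 lower at 12 generations. Leaving out 1 array gave 1276 to 1701 genes, 617 to 841 higher and 659 to 860 lower. The 13 arrays alone gave counts beyond 1.5 times the value as labelled (870, of which 411 higher and 459 lower). So did slide partners averaged (548, 250 and 298, with fewer units) and the same with 8-generation array 1 turned (696, 332 and 364). A difference of at least 1 (676, 330 and 346), a block for array set (1027 and 519 lower) and array weights (1116 higher) did too. With array weights the total was 2162, the largest of any setting. For the 13 arrays alone, the block and the weights, the cause was not tested. A replicate block, for arrays of equal number, gave 1432 genes, 677 higher and 755 lower; the numbers do not pair the arrays. The other settings gave 1083 (arrays scaled to each other) to 1932 genes (without 12-generation arrays 2 and 3), and 1616 came from the authors' deposited values. Under that block for array set the sign turned for CYB5 (0.42), ARF1 (0.91), MF(ALPHA)2 (0.069), RPS28B (0.23), CDC33 (0.0705), STF2 (-0.10), STL1 (-0.34), TKL1 (0.36), ERG1 (0.16), ARG56 (0.82) and IMD2 (0.37), and without 8-generation arrays 5 and 6 for CDC19 (-0.21, against 1.19 as labelled, 0.51 without array 6 alone and 1.89 without array 1); the cause was not tested. Over 203 named genes and their 7632 values in other settings, 7094 were counted as unchanged, 502 lost the call, 24 gained it and 12 turned. A change of sign was counted as turned only where the gene passed as labelled or in that setting. MIG1 passed in neither, so its turn to -0.85 under the block is not among those counted or listed. The 13 arrays limit what differences could be called, and dim spots bound the a-cell genes.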

Other observations

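Several lists outside the account above held called genes. Of 16 vacuolar ATPase genes, 0 were higher at 12 than at 8 generations and 5 lower (6 in each repeat), with list medians of -0.70 to -0.21 at 12 generations and -0.44 to 0.20 at 8 generations. VMA7, a subunit of its catalytic sector, ran from -0.95 to -0.16 at 12 generations and from 0.02 to 0.81 at 8 generations, below the young control on every array of the first age and above it on every array of the second (difference -0.82 ± 0.22, adjusted p = 0.00631), and it did not pass with slide partners averaged (0.109) or under the block for array set (0.289). Of 10 pentose phosphate genes, 1 was higher and 4 lower (1 and 3 in each repeat). RKI1, the ribose phosphate isomerase, ran from -2.51 to -0.34 at 12 generations and from -0.08 to 1.03 at 8 generations (-1.78 ± 0.30), while TKL2, the minor transketolase, differed by 1.65 ± 0.35 (0.83 under the block, adjusted p = 0.482). Of 20 genes of endoplasmic reticulum chaperones and folding, 0 were higher and 7 lower (8 and 7 in the repeats), with SEC61, the translocation channel, at -1.17 ± 0.27 (adjusted p = 0.0656 with slide partners averaged). Of 32 nuclear pore genes, 1 was higher (3.1%) and 4 lower (12.5%), neither above the 12.6% and 13.9% of all genes. With 8-generation array 1 turned, 2 were higher and 4 lower. NUP49 ran from -1.34 to -0.60 at 12 generations and from -0.36 to 0.07 at 8 generations (-0.89 ± 0.16).

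Iron, cell wall and meiotic genes moved one by one. Of 29 iron regulon genes, 5 were higher (17.2%) and 1 lower (3.4%), beside 12.6% and 13.9% of all genes. The repeats gave 4 and 1, and 6 and 1. HMX1, the haem oxygenase, ran from 0.91 to 2.69 at 12 generations (median 2.20) and from -1.88 to 0.08 at 8 generations (median -0.22), a difference of 2.36 ± 0.27 (adjusted p = 7.1e-07). Of 33 cell wall genes, 5 were higher (15.2%) and 4 lower (12.1%), near the 12.6% and 13.9% of all genes. The repeats gave 4 and 2, and 6 and 2. UTR2, a chitin crosslinking enzyme, ran from -1.32 to -0.93 at 12 generations (median -1.27) and from -0.32 to 1.15 at 8 generations (median 0.58), a difference of -1.71 ± 0.17 (adjusted p = 1.08e-07), while YPS3, a cell surface aspartic protease, differed by 1.45 ± 0.22. Of 42 meiosis and sporulation genes, 8 were higher (19.0%) and 0 lower (6 and 4 higher in the repeats), beside 12.6% and 13.9% of all genes as labelled. With 8-generation array 1 turned, the 4 of 42 were a smaller share than the 14.3% higher over all genes. Without that array, the 6 of 42 were near the 12.6% of all genes. DIT1, of spore wall synthesis, ran from 1.16 to 3.13 at 12 generations and from -0.48 to 1.02 at 8 generations (1.29 ± 0.25, adjusted p = 0.000556). IME1, the inducer of meiosis, differed by 2.09 ± 0.70 (adjusted p = 0.0276), which was lost without 8-generation array 1 (0.0809), without 8-generation array 6 (0.055), without 12-generation array 5 (0.071) or 7 (0.0589), and with 8-generation array 1 turned (0.0965). It was also lost with slide partners averaged (0.122) and under the block for array set, where IME1 stood at 1.01. Of 26 DNA damage genes, 3 were higher (11.5%) and 0 lower, no more than over all genes (12.6% and 13.9%). The repeats gave 2 and 1, and 4 and 1. PHR1, the photolyase, differed by 1.44 ± 0.25.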
